A study of Mus musculus with 8 samples.

Results

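Messenger RNAs leave the nucleus with a poly(A) tail, and male germ cells lengthen, shorten and rebuild these tails again in the cytoplasm, because many transcripts are made long before they are translated. Canonical poly(A) polymerases extend the tail: Papola acts in the nucleus on most transcripts, Papolg is a second nuclear enzyme, and Papolb, also called TPAP, is a testis enzyme found in the cytoplasm of germ cells. Noncanonical enzymes work on other substrates, among them Papd4 (GLD2), a cytoplasmic polymerase known as a partner of CPEB proteins, and Papd5 and Papd7, which add short or mixed tails. The CPEB proteins bind U-rich elements in the 3' part of messages, the cytoplasmic polyadenylation element UUUUAU in the case of Cpeb1, and hold or release translation. Cpeb2, Cpeb3 and Cpeb4 form a subfamily with closely related RNA-binding domains.

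The transcripts of these 10 genes, 3 canonical polymerases, 3 noncanonical polymerases and 4 CPEB proteins, were picked by gene symbol from 56324 gene models. Each symbol matched 1 model, and all 10 models passed the filter on low values, 10 or more normalized counts in 4 or more libraries, that 28735 models passed. RNA came from germ cells of 12-week-old C57BL/6 males that all carried the genotype label Sam68 -/-, a null genotype for the RNA-binding protein Sam68. The groups were spermatocytes, the cells in meiosis, with 4 libraries, and spermatids, the haploid cells that follow, with 4 libraries, both separated by sedimentation at unit gravity. Libraries are numbered 1 to 4 here in sample order within each cell type, and equal numbers do not mark a pair. Whether the 4 libraries of a cell type stem from different mice is not in the labels. The p-values therefore cover the spread among libraries, which may be technical. Libraries of another genotype were not analysed here, so the values describe the step from spermatocyte to spermatid under this genotype label and not the effect of the knockout.

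Libraries held 49000266 to 93975960 reads, and the 10 transcripts were covered by 134 to 143307 reads per library. The 10 spermatid markers, all detected in every library, summed to between 20590 and 37206 normalized counts in spermatocytes and between 553953 and 664239 in spermatids. The 9 spermatocyte markers summed to between 240734 and 274382 in spermatocytes and between 56704 and 69116 in spermatids, so neither list was absent from the other fraction. Sertoli cell markers, all 11 of which were detected in every library, summed to between 32878 and 158168 in spermatocytes and between 2898 and 6725 in spermatids, and their mean log2 level was highest in spermatocyte library 3. In the same order of cell types, Leydig cell markers summed to between 3279 and 6591 and between 193 and 1086, and endothelial markers to between 465 and 540 and between 1586 and 1962, both without overlap. The sums were between 611 and 1115 and between 970 and 1977 for peritubular myoid cells, and between 4788 and 8259 and between 2709 and 5253 for spermatogonia, both with overlap. By mean log2 level the spermatogonial markers leaned the other way, 6.53 to 7.85 in spermatocytes and 7.71 to 8.67 in spermatids, also with overlap. Markers of macrophages and blood summed to between 132 and 151 and between 1800 and 4210, with the globin genes Hba-a1 and Hbb-bs at 0 in at least 1 library. Their part in the values given here was not tested. Khdrbs1, which encodes Sam68, stood between 3421 and 4985 normalized counts in spermatocytes and between 625 and 1129 in spermatids. These reads were summed over a whole gene model that may reach beyond the deleted part, so they do not check the genotype.

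The 3' ends were searched for the letters that the polyadenylation machinery reads. In the last 100 bases of an annotated transcript, searched on the sense strand, AATAAA, the hexamer that marks the site of cleavage and tail addition, stood in 61.8% of 21782 mouse coding genes, and TTTTAT, the DNA letters of the cytoplasmic polyadenylation element, in 12.9%. Among the 10 genes AATAAA stood in this window in 7, a share near that of all genes, and it was not found there in Papola, Papolg or Papd5. The Papola window closed at position 105838807, while the deposited model runs on to 105838939, and the bases beyond the window were not searched. Stretches of 30 bases, read 5' to 3' from GENCODE M21 transcripts on GRCm38, the assembly also called mm10, are shown for the testis polymerase and for the CPEB genes with the largest changes. Capitals mark TTTTAT and the copy of AATAAA nearest to the end, and the GENCODE end of Papolb holds 2 adjacent copies of AATAAA, the first of them in lower case.
Papolb, end of the deposited model, chr5:142527758-142527787, minus strand: ttccTTTTATtgagagttcAATAAAacaga
Papolb, end of the GENCODE transcript, chr5:142525849-142525878, minus strand: aaacacaataaaAATAAAtgccaaacaacc
Cpeb2, chr5:43289690-43289719, plus strand: tgttgactgactAATAAActattaagttat
Cpeb3, chr19:37021301-37021330, minus strand: ggacaattggatAATAAAacgacagaatga
Cpeb4, chr11:31935604-31935633, plus strand: agatgttgaatgAATAAAacttttaactca
For Papolb the deposited model and the GENCODE transcript end at different positions. The deposited model closes at position 142527729, where TTTTAT and AATAAA lie 9 bases apart, while the GENCODE transcript runs on to 142525838. Reads beyond the deposited end would not be counted for Papolb. Papd7 also holds TTTTAT in its last 100 bases. A match describes letters and does not show that the element is used.

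The canonical polymerases split in direction. Papolb and Papola rose to similar degrees from spermatocytes to spermatids, by 1.47 and 1.49 on the log2 scale, while Papolg fell by 1.78. Of the 10 genes 7 were called higher in spermatids and 1 lower, at a limma adjusted p below 0.05 and a change of at least 1 on the log2 scale. Over all tested models 32.5% were called higher and 29.8% lower. All 10 passed the adjusted p when fold size was disregarded, as did 72.3% of models. In all 10 the groups did not overlap, as in 66.4% of models (34.2% with spermatids higher and 32.2% lower). The median change of the 10 was 1.45, against -0.011 over all models, on the scale of log2(normalized count + 1) on which all fold changes here are given.

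Papolb was the most abundant of the 10. It is a gene without introns on chr5:142527729-142530076, minus strand, inside Radil on the same strand. Spermatocyte libraries 1 to 4 held 57904, 60925, 27654 and 33978 normalized counts of Papolb, and spermatid libraries 1 to 4 held 93647, 133923, 131662 and 116940. Spermatocyte libraries 3 and 4 were at the low end, and every spermatid library lay above every spermatocyte library. The change of Papolb was 1.47 ± 0.26 (SE, n = 4 each), or 2.76-fold, with a limma adjusted p = 2.6e-04. Libraries 3 and 4 were also those with the highest mean log2 level of Sertoli markers among spermatocytes, 11.95 and 10.79 against 9.88 and 10.41. Without them the change of Papolb was 0.99, just under the fold threshold (limma adjusted p = 5.5e-04). The part of the Sertoli markers in the Papolb value was not tested.

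Papolb overlaps other gene models. Radil, whose span contains Papolb, had between 7259 and 10032 normalized counts in spermatocytes and between 3644 and 4801 in spermatids, at most 36.3% of the Papolb level in any library. Radil was thus lower in each spermatid library than in each spermatocyte library, opposite to Papolb. The deposited Foxk1 model, which also spans it, reached at most 11.2%. Of the words of 50 bases along the deposited Papolb transcript, 0.696% also occurred in a transcript of another gene, in each case Papola.

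Papola lies on chr12:105784701-105838939 on the plus strand. It stood at 1832, 2084, 2181 and 754 normalized counts in spermatocyte libraries 1 to 4 and, in the same order, at 4237, 4570, 4432 and 4563 in the spermatid ones. Spermatid values were nearly level, with a coefficient of variation of 3.50%, while spermatocyte library 4 stood well below the rest, so that the coefficient was 38.3% there. The change was 1.49 ± 0.29 (SE, n = 4 each; limma adjusted p = 6.1e-04), and 1.13 without spermatocyte library 4. Spermatocyte library 4 also had the lowest mean log2 level of the 9 spermatocyte markers in its group, 13.09 against 14.04 to 14.27. Of these markers Sycp1 was lowest there, 1653 normalized counts against 12680 to 26690, while Piwil1 was highest, 166551 against 118349 to 141922. The part of this in the Papola value was not tested.

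Papolg, on chr11:23862647-23895270, minus strand, was the one gene of the 10 that fell. Its level was 629, 726, 604 and 751 normalized counts in spermatocyte libraries 1 to 4 and, in the same order, 266, 136, 209 and 195 in the spermatid ones. All spermatid libraries lay below all spermatocyte libraries, and library 2, the lowest, held 136. The change was -1.78 ± 0.24 (SE, n = 4 each; limma adjusted p = 3.0e-05). It stayed between -3.08 and -1.60 in 23 alternatives and was called lower in each.

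**Figure D1:**
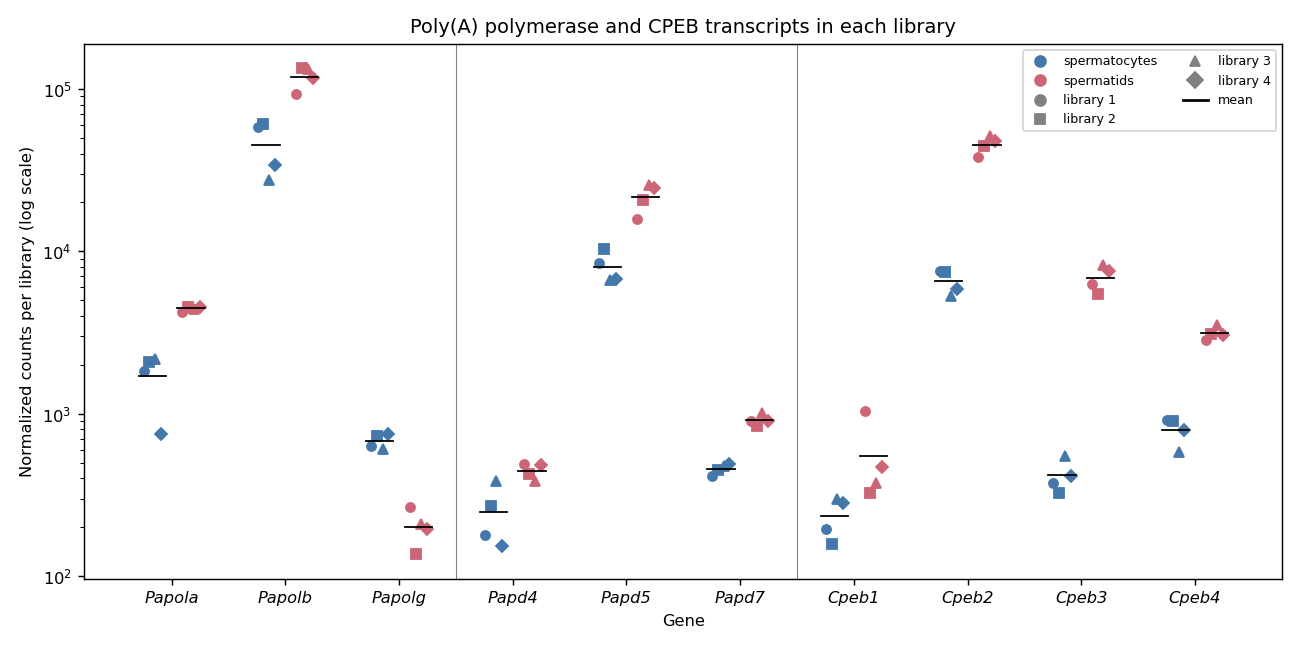
Normalized counts of the 10 transcripts (log axis) in each of 4 spermatocyte libraries (blue) and 4 spermatid libraries (red), with symbols for the library number and a line at the group mean. Papolg is the gene whose spermatid libraries lie lower, between 136 and 266 against 604 to 751, and Cpeb3 shows the widest gap, 327 to 552 against 5492 to 8215.

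Within a library the ratio of a pair does not depend on how libraries are scaled. No shift between Papola and Papolb was detected. The log2 ratio of Papola to Papolb was -4.75 ± 0.77 in spermatocytes and -4.73 ± 0.20 in spermatids (mean and SD, n = 4 each; difference 0.02, exact two-sided permutation p = 0.94). Leaving out 1 library at a time gave differences from -0.22 to 0.39. The ratio of Papolb to Papolg went from 5.98 ± 0.55 to 9.23 ± 0.61 and that of Papola to Papolg from 1.23 ± 0.83 to 4.50 ± 0.44 (SD, n = 4 each), in both without overlap between the groups. Both reached the smallest p that the exact two-sided permutation test of 4 against 4 allows, 0.0286. Of 12 ratios tested within the 3 families, 6 reached it, and after Benjamini-Hochberg adjustment over the 12 these stood at an adjusted p = 0.057 by the exact test, so 0 of 12 passed.

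Per kilobase of exon the testis polymerase made up nearly the whole family in both cell types. Papolb had 19214 ± 7137 normalized counts per kilobase in spermatocytes and 50700 ± 7892 in spermatids (mean and SD, n = 4 each), which placed it at percentiles 99.3 and 99.6 of 17901 tested models with a known exon length. Its share of the summed level of the 3 canonical polymerases was 96.4% to 98.4% in spermatocytes and 98.3% to 98.8% in spermatids. Papolg took 0.697% ± 0.253 of the sum in spermatocytes against 0.0748% ± 0.0322 in spermatids, while that of Papola was 1.45% ± 0.860 and 1.34% ± 0.187 (SD, n = 4 each).

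Promoters of the canonical polymerases are shown because these 3 genes moved in opposite directions. Each line gives the 250 bases before the start site, from the RefSeq table on GRCm38.p6, 5' to 3', with the matches to any searched motif in capitals. The motifs were searched on both strands. TGACGTCA is the cAMP response element bound by CREM and its relatives, and its core TGACG is contained in every full element. Also searched were TATAAA of the TATA box, CCAAT of the CCAAT box, GGGCGG of the GC box and GTTGCC of the RFX site.
Papolb, chr5:142530077-142530326, minus strand: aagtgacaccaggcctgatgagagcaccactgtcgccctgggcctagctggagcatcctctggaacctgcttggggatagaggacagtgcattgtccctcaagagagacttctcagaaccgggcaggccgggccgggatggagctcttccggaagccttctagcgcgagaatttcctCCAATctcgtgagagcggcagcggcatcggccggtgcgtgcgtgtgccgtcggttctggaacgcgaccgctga
Papola, chr12:105784447-105784696, plus strand: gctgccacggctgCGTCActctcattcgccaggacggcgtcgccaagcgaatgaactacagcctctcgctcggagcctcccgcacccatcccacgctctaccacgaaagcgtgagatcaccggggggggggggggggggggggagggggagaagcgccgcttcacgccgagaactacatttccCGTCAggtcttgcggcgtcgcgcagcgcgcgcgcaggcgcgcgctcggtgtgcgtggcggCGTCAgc
Papolg, chr11:23895271-23895520, minus strand: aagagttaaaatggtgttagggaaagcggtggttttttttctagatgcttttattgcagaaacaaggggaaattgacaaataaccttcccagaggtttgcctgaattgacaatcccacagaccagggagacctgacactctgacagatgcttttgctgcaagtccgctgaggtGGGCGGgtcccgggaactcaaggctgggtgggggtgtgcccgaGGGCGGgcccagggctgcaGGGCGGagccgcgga
The Papola window held the core TGACG 3 times, that of Papolb held CCAAT 1 time, and that of Papolg held the GC box 3 times. Of 32851 mouse promoter windows of this length, 17.8% held TGACG, 33.8% CCAAT and 32.7% GGGCGG at least 1 time, and 1.55% the full TGACGTCA, 12.4% TATAAA and 10.4% GTTGCC. The windows held 34 CpG dinucleotides in Papola, 19 in Papolb and 9 in Papolg, against a median of 6. These matches describe the letters of the windows and no binding was measured.

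Among the noncanonical polymerases Papd5 rose, and Papd4 and Papd7 stayed just under the fold threshold. Papd5, on chr8:88199212-88259716, plus strand, encodes the enzyme that tags nuclear RNAs with short tails for trimming by the exosome. Spermatocyte libraries 1 to 4 held 8421, 10264, 6638 and 6786 normalized counts of Papd5 and spermatid libraries 1 to 4 held 15863, 20681, 25510 and 24429. The groups were apart, with spermatid library 1 lowest in its group. The change was 1.43 ± 0.21 (SE, n = 4 each; limma adjusted p = 4.9e-05). Scaled to equal total reads it was 0.99 and with quantile normalization 0.87, both under the fold threshold.

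Papd7, on chr13:69497959-69533864, minus strand, encodes the close relative of Papd5. It varied least of the 10 within spermatocytes, with 416, 448, 479 and 491 normalized counts in libraries 1 to 4, and stood at 900, 837, 1006 and 896 in spermatid libraries 1 to 4. The groups were far apart for their spread, with coefficients of variation of 7.34% and 7.71%. The change was 0.99 ± 0.18 (SE, n = 4 each; limma adjusted p = 3.1e-04), and it was not called because it missed the fold threshold. With TMM scaling it was 1.12 and after removal of the trend with GC content 1.31, and called in both. It was also called without spermatocyte library 3 (1.01), spermatocyte library 4 (1.02) or spermatid library 2 (1.03).

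Papd4, on chr13:93146283-93192283, minus strand, was the least certain. Its level was 180, 271, 387 and 153 normalized counts in spermatocyte libraries 1 to 4. In spermatid libraries 1 to 4 it was 490, 423, 387 and 484. The highest spermatocyte library thus came up to the lowest spermatid library. The change was 0.94 ± 0.29 (SE, n = 4 each; limma adjusted p = 0.013) and not called. It was called without spermatocyte library 3 (1.18), spermatocyte library 2 (1.01) or spermatid library 3 (1.00). Of the words of 50 bases along its transcript 27.5% also occurred in the processed pseudogene Gm15975. Unnamed models inside its span held up to 42.0% of its level in a library. The direction of Papd4 turned, to -0.32 and not called, when the GC trend was removed and all libraries were set to the same mean, an alternative chosen after seeing the data that moves the median of all models to -0.44.

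Papd5 held 89.8% to 94.7% of the summed level per kilobase of these 3 enzymes in spermatocytes and 93.3% to 96.0% in spermatids. The log2 ratio of Papd5 to Papd7 was 4.11 ± 0.38 in spermatocytes and 4.55 ± 0.28 in spermatids (mean and SD, n = 4 each; exact two-sided permutation p = 0.14). For Papd4 to Papd5 it was -5.09 ± 0.67 and -5.58 ± 0.42 (exact permutation p = 0.29), and for Papd4 to Papd7 -0.98 ± 0.59 and -1.03 ± 0.23 (exact permutation p = 0.91). The groups overlapped in each of these ratios, so a shift in balance among these enzymes was not detected with 4 libraries each.

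**Figure D2:**
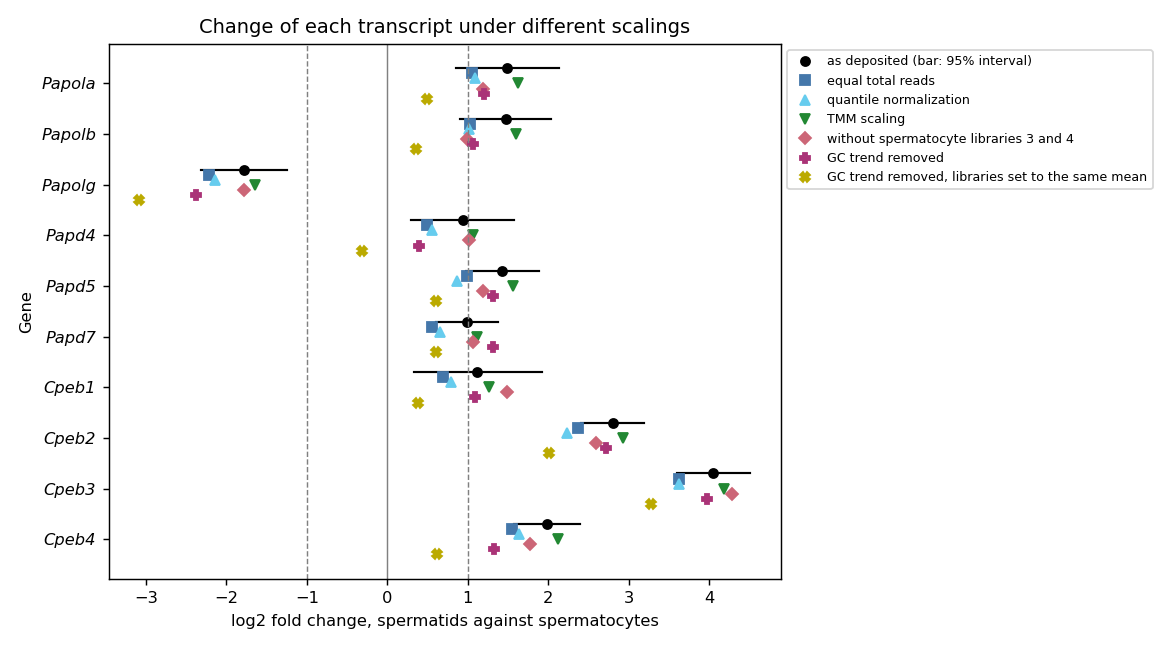
Log2 fold change of each transcript, spermatids against spermatocytes, as deposited (black, with its 95% interval) and under 6 alternatives, with dashed lines at the fold threshold. Cpeb2 and Cpeb3 lie beyond it under each setting drawn, Papolg lies beyond it on the other side, and the setting with GC trend removed and equal library means gives the lowest value for every gene but Papd7, where it is 0.60 against 0.55 with equal total reads.

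All 4 CPEB genes were called higher in spermatids, as were 32.5% of all models. Cpeb3 and Cpeb2 changed most of the 10 genes. Cpeb3, on chr19:37021291-37207509, minus strand, stood at 376, 327, 552 and 413 normalized counts in spermatocyte libraries 1 to 4 and, in the same order, at 6316, 5492, 8215 and 7562 in the spermatid ones. The lowest spermatid library of Cpeb3 was far above the highest spermatocyte library. The change was 4.05 ± 0.21 (SE, n = 4 each), or 16.6-fold, with a limma adjusted p = 7.6e-09. Even so 3521 of the 28735 models rose by more.

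Cpeb2, on chr5:43233463-43289724, plus strand, was the most abundant CPEB transcript. Spermatocyte libraries 1 to 4 held 7589, 7415, 5315 and 5831 normalized counts of Cpeb2 and spermatid libraries 1 to 4 held 38059, 44727, 51169 and 47464. The groups did not overlap, and libraries 3 and 4 were the lower ones in spermatocytes. The change was 2.80 ± 0.18 (SE, n = 4 each), or 6.98-fold, with a limma adjusted p = 4.5e-08. Gm7854, an antisense gene that overlaps the start of Cpeb2, had between 50.3 and 135 normalized counts in spermatocytes and between 283 and 715 in spermatids, at most 1.80% of the level of Cpeb2.

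Cpeb4, on chr11:31872211-31935632, plus strand, had 910, 902, 585 and 796 normalized counts in spermatocyte libraries 1 to 4 and, in the same order, 2838, 3090, 3514 and 3064 in the spermatid ones. Groups were apart, and spermatocyte library 3 was the lowest. The change was 1.99 ± 0.19 (SE, n = 4 each; limma adjusted p = 1.3e-06). With the GC trend removed and libraries set to the same mean it was 0.62 and not called.

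Cpeb1, on chr7:81347027-81454762, minus strand, is the founding member, which represses and then activates stored messages. It had 194, 158, 299 and 284 normalized counts in spermatocyte libraries 1 to 4 and, in the same order, 1044, 323, 375 and 468 in the spermatid ones. Spermatid library 1 held far more than the others, and the lowest spermatid library lay just above the highest spermatocyte library. The change was 1.12 ± 0.36 (SE, n = 4 each; limma adjusted p = 0.015). Without spermatid library 1 the change was 0.76 (limma adjusted p = 0.036) and without spermatocyte library 2 it was 0.95 (limma adjusted p = 0.046), both under the fold threshold, and with equal total reads it was 0.69 with a limma adjusted p = 0.18. Spermatid library 1 also had the highest mean log2 level of the macrophage and blood markers, 7.08 against 5.61 to 6.25, and of the spermatogonial markers, 8.67 against 7.71 to 8.02. Leydig markers were also highest in it, 7.19 against 4.34 to 6.44, as were peritubular myoid markers, 8.4 against 7.5 to 7.73. Spermatocyte markers were at 12.25 against 11.93 to 12.15. Of these, Sycp3 was at 11243 normalized counts against 4421 to 5871, and Piwil1 at 3928, within the 3574 to 5835 of the others. Endothelial markers were lowest in it, 7.82 against 8.11 to 8.17, as were spermatid markers, 15.29 against 15.37 to 15.62. The part of these in the Cpeb1 value was not tested.

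Within the CPEB family the share of Cpeb3 was larger in each spermatid library than in each spermatocyte library, and that of Cpeb4 smaller. Per kilobase of exon the summed CPEB level was 951 to 1253 in spermatocytes and 6644 to 8586 in spermatids. Cpeb2 held the major share, 77.9% ± 3.55 against 79.1% ± 2.30. Cpeb3 went from 5.37% ± 1.95 to 12.5% ± 1.37, Cpeb4 from 11.2% ± 1.08 to 6.47% ± 0.304 and Cpeb1 from 5.56% ± 2.29 to 1.93% ± 1.39 (SD, n = 4 each).

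The order of Cpeb3 and Cpeb4 by normalized counts turned between the cell types. The log2 ratio of Cpeb3 to Cpeb4 was -1.27, -1.46, -0.08 and -0.94 in spermatocyte libraries 1 to 4 and, in the same order, 1.15, 0.83, 1.22 and 1.30 in the spermatid ones. It was below 0 in each spermatocyte library and above 0 in each spermatid library (difference 2.07; exact two-sided permutation p = 0.0286, adjusted p = 0.057 over the 12 ratios). The ratio of Cpeb2 to Cpeb4 had the smallest spread, 3.04 ± 0.13 and 3.85 ± 0.09, and that of Cpeb2 to Cpeb3 was 3.98 ± 0.56 and 2.73 ± 0.20 (SD, n = 4 each; exact permutation p = 0.0286 for both). Cpeb1 to Cpeb3 went from -0.85 ± 0.22 to -3.78 ± 0.82 (SD, n = 4 each; exact permutation p = 0.0286). Cpeb1 to Cpeb2 (exact permutation p = 0.086) and Cpeb1 to Cpeb4 (exact permutation p = 0.20) overlapped between the groups through spermatid library 1.

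**Figure D3:**
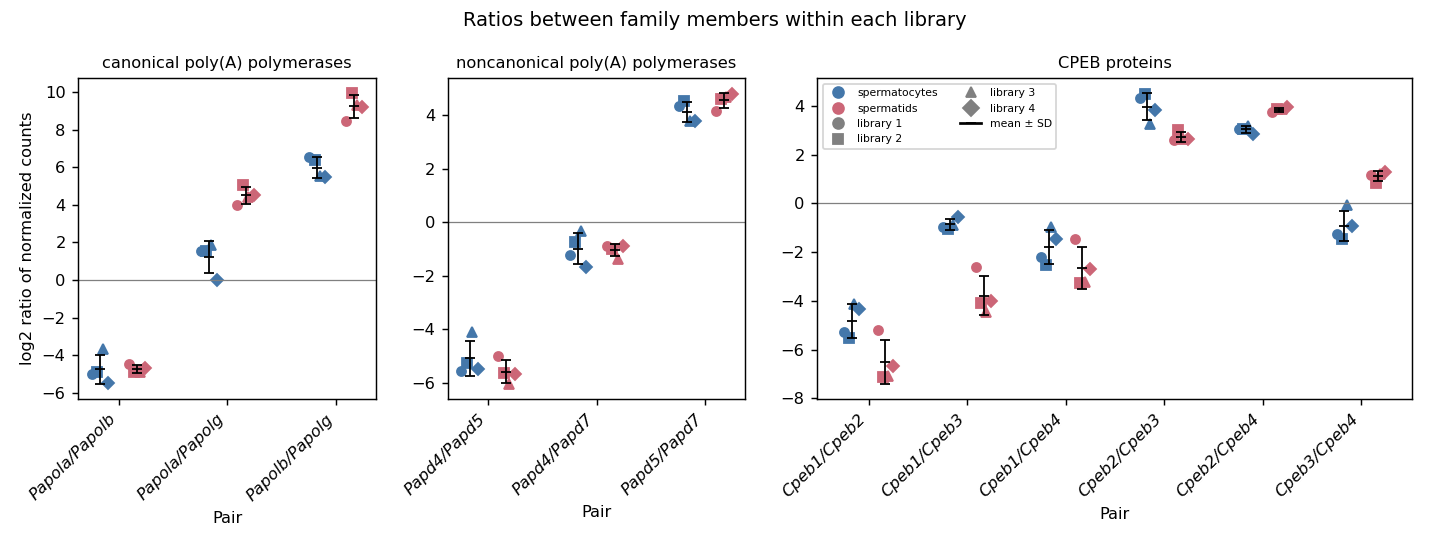
Log2 ratio of normalized counts for the 12 pairs within the 3 families, in each spermatocyte library (blue) and spermatid library (red), with mean ± SD in black. Ratios with Papolg and the ratio of Cpeb3 to Cpeb4 are apart between the cell types, from -1.46 to -0.08 against 0.83 to 1.30 for the latter, while the 3 noncanonical ratios overlap.

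**Figure D4:**
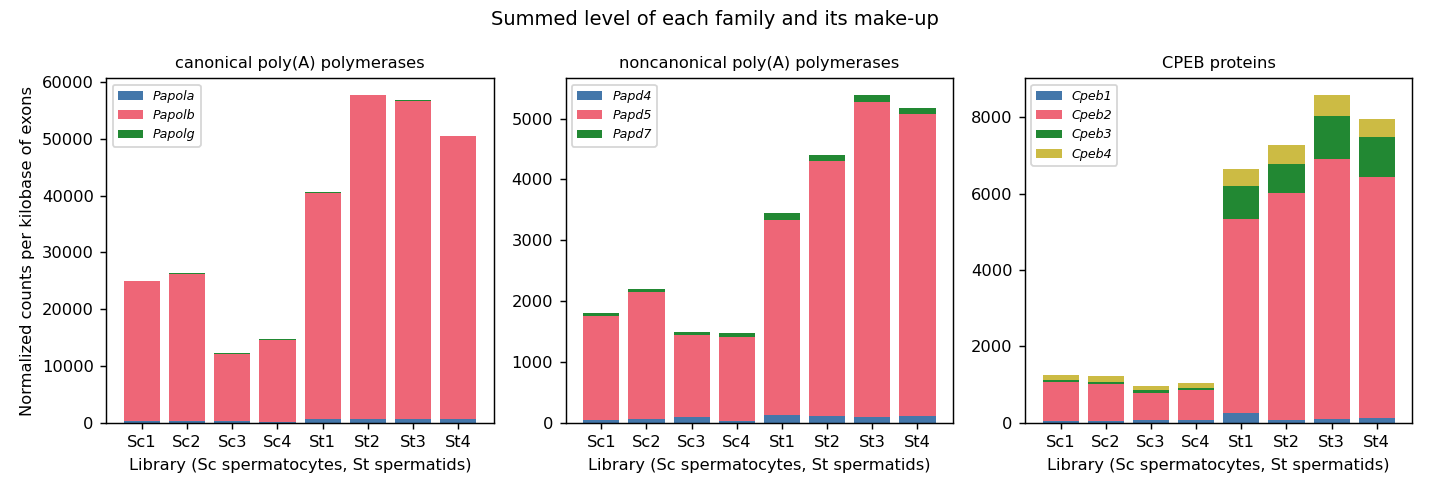
Normalized counts per kilobase of exon, stacked by gene, for each family in spermatocyte libraries Sc1 to Sc4 and spermatid libraries St1 to St4. Papolb, Papd5 and Cpeb2 make up most of their family in each library, and the CPEB sum is 951 to 1253 in spermatocytes and 6644 to 8586 in spermatids.

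Papolb had the highest level per kilobase of the 10 in both cell types. In spermatocytes it ran from Papolb over Papd5 (1628 ± 344), Cpeb2 (869 ± 151), Papola (260 ± 99.7), Cpeb4 (125 ± 23.8) and Papolg (123 ± 13.1) to Papd4, Cpeb1, Cpeb3 and Papd7 at 56.1 to 60.8 (mean normalized counts per kilobase, SD, n = 4). Library ranges overlapped between neighbours from Papola to Papolg and among the last 4. In spermatids Cpeb2 (6029 ± 736) and Papd5 (4385 ± 884), whose ranges overlapped, followed Papolb, then came Cpeb3 (954 ± 169), Papola (676 ± 23.7) and Cpeb4 (491 ± 44.3), which did not overlap. Cpeb1 (140 ± 84.6), Papd7 (111 ± 8.59) and Papd4 (110 ± 12.2) overlapped, and Papolg (36.7 ± 9.76) was lowest. The lengths merge the exons of all annotated transcripts of a gene, 8165 bases for Papd7 and 5490 for Papolg. The order with the length of a single transcript was not tested. In these bulk samples more RNA of a gene per cell and more cells of an expressing type cannot be told apart.

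Other nucleotidyltransferases related to the noncanonical enzymes were called higher for 3 of 8 genes and lower for 0, at a median of 0.70, where 32.5% of all models were called higher and 29.8% lower. With the GC trend removed and libraries set to the same mean the median turned to -0.22, with 2 higher and 1 lower. Over all models 27.6% were then called higher and 36.1% lower. The list held Tut1, the uridylating enzymes Zcchc6 and Zcchc11, the mitochondrial polymerase Mtpap and the Fam46 family of cytoplasmic poly(A) polymerases. The 3 called genes belong to the Fam46 family, of which Fam46a was not called and stood at -0.03 (limma adjusted p = 0.95). Zcchc6 was at 0.86 (limma adjusted p = 9.6e-04), under the fold threshold. Both were named after their values were seen, as was Fam46b. The X-linked Fam46d rose by 5.2 ± 0.61, from 341 ± 213 to 9245 ± 1206 normalized counts, while Fam46c rose by 2.99 ± 0.24, from 8032 ± 2351 to 61566 ± 7439 (SE for log2 changes and SD for counts, n = 4 each; limma adjusted p = 1.1e-05 and 2.9e-07). Fam46b was at 1.42, and at 0.99 without spermatocyte libraries 3 and 4 and with equal total reads.

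Among 11 partners of the canonical enzymes in nuclear polyadenylation, 0 were called higher and 3 lower, with a median of -0.28. Over all models 32.5% were called higher and 29.8% lower, the latter close to the share of the list. With the GC trend removed 2 were called higher and 4 lower, against 35.8% and 21.2% of all models. With TMM scaling 1 was called higher, against 34.4%. The same count was called higher without spermatocyte library 4 (32.3% of all models) and without spermatocyte libraries 3 and 4 (33%). Called lower were 4 with equal total reads (38.2% of all models) and 5 with quantile normalization (36.3%). With the GC trend removed and libraries set to the same mean 6 were called lower (36.1%), at a median of -1.08. Cpsf4, the zinc finger subunit of the cleavage and polyadenylation specificity factor, fell by 1.97 ± 0.22, from 1845 ± 517 to 461 ± 66 normalized counts (limma adjusted p = 6.1e-06). Cpsf7, a subunit of cleavage factor I, fell by 1.53 ± 0.23, from 3701 ± 1126 to 1255 ± 249 (SE for log2 changes and SD for counts, n = 4 each; limma adjusted p = 7.7e-05). The other called member, named after its values were seen, was Fip1l1, a subunit that contacts poly(A) polymerase, with a change of -1.39.

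Partners and modifiers of the CPEB proteins went both ways, with 4 of 18 tested called higher, 4 lower and a median of 0.26. Both shares lie below the 32.5% and 29.8% of all models. When only models with a GC value were fitted, 35.4% were called higher and 21.1% lower, the latter close to the share of the list. The median turned to -0.18 with equal total reads, where 7 were lower, against 38.2% of all models. Msi2, a Musashi RNA-binding protein, rose by 3.31 ± 0.20, from 404 ± 53.6 to 4045 ± 794 normalized counts (limma adjusted p = 2.8e-08). Eif4e1b, a germ cell relative of the cap-binding protein, had 3.93 to 29.1 normalized counts in spermatocytes and 49.3 to 70.8 in spermatids. Eif4e1b thus passed the filter on low values through the spermatids, and its log2 change was 2.60, 1.93 with a pseudocount of 8, and not tested under a filter of 50. The RNA helicase gene Ddx6 fell by 2.16 ± 0.18, from 4884 ± 431 to 1104 ± 224 (limma adjusted p = 5.3e-07; SE for log2 changes and SD for counts, n = 4 each). Also called, and named after their values were seen, were Parn, a deadenylase (2.05), Lsm14a (2.11), Lsm14b (-1.86) and Tob2 (-1.51). Zar1 was below the filter, and Plk1 had no value.

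Of 12 tested partners of Papd5 and Papd7 in tagging and trimming RNA, 3 were called higher and 2 lower, with a median of 0.26 that turned to -0.18 with equal total reads. Neither share exceeds that of all models, 32.5% and 29.8%. Dis3, an exosome nuclease, rose by 3.49 ± 0.20, from 576 ± 119 to 6465 ± 1111 normalized counts (limma adjusted p = 1.9e-08), and Zcchc7, which joins Papd5 in the TRAMP complex, by 1.85 ± 0.29, from 785 ± 285 to 2731 ± 624 (limma adjusted p = 8.6e-05). The exosome subunit genes Exosc7 and Exosc2 fell by 2.27 ± 0.36 and 1.55 ± 0.24 (SE for log2 changes and SD for counts, n = 4 each; limma adjusted p = 1.2e-04 and 9.3e-05). Skiv2l2, the TRAMP helicase, named after its value was seen, was at 1.51. Exosc6 had no value.

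Messages known as CPEB targets in germ cells showed 2 of 10 called higher and 2 lower, with a median of -0.06, against 32.5% and 29.8% of all models. The median was 0.07 with TMM scaling, -0.35 with DESeq2, -0.50 with equal total reads and -0.51 with the GC trend removed. It ranged from 0.08 without spermatocyte library 2 to -1.22 with the GC trend removed and libraries set to the same mean. With the GC trend removed 1 was called higher and 5 lower, against 35.8% and 21.2% of all models. Mos, a kinase gene of oocyte maturation, had 5.64 to 16.7 normalized counts in spermatocytes and 198 to 279 in spermatids. It passed the filter on low values through the spermatids, and the log2 change of Mos was 4.69, 4.77 with a pseudocount of 0.5 and 3.89 with 8. Ccnb1, cyclin B1, was at 1.06 ± 0.35 (limma adjusted p = 0.017), and at 0.66 and not called without spermatocyte libraries 3 and 4. Plat, tissue plasminogen activator, fell by 2.75 ± 0.46, from 292 ± 237 to 35.3 ± 9.43, and the kinase gene Cdk1 fell by 2.01 ± 0.23 (SE for log2 changes and SD for counts, n = 4 each; limma adjusted p = 1.6e-04 and 6.2e-06). Sycp1 and Sycp3, which encode synaptonemal complex proteins, were at 0.10 ± 0.71 and -0.86 ± 0.49 (SE, n = 4 each) and not called. The value of Sycp1 depended on spermatocyte library 4, the lowest spermatocyte library for both genes. Without it Sycp1 was at -0.77 and not called, and Sycp3 was at -1.44 and called lower. Leaving out any other single library gave -0.03 to 0.57 for Sycp1 and -1.16 to -0.63 for Sycp3, not called. Tail lengths and protein levels were not measured. The libraries were made of polyadenylated RNA, so a change of RNA level and a change in selection by tail cannot be told apart. With equal total reads 1 of these 10 messages was called higher and 4 lower, against 27.3% and 38.2% of all models.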

How the data were processed

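Per the labels' protocols, DNase-treated RNA was made into stranded libraries of polyadenylated RNA. The deposited values are a signal, read counts per gene model that the authors divided by a size factor per library (DESeq normalization, per the file's own name, with mm10 coordinates per the file headers). STAR 2.4.0, SAMtools, Picard, FastQC and DESeq stand in the submitters' processing notes. How reads were counted, and with what strand setting, is not given in the sources used here, so reads of overlapping or antisense genes may be mixed. Another 8 columns of per-sample values were not used.

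Every value was a whole multiple of 1 step per library: 100% of the values above 0 lay within 10% of a step of a whole number. The steps gave back the reads, and 3 reads correspond to 2.42 to 4.50 normalized counts, a floor for counting error only. Values were analysed as log2(normalized count + 1) with limma 3.58.1 (trend and robust moderation, R 4.3.3) over all 28735 models that reached 10 normalized counts in 4 or more libraries, with Benjamini-Hochberg adjustment over all of them. Called means an adjusted p below 0.05 and an absolute log2 change of at least 1. On the recovered reads edgeR 4.0.16 called 17906 models (17896 with limma). DESeq2 1.42.0 was also run. Ratios were tested by exact permutation (scipy 1.17.1).

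Exon lengths and GC content came from GENCODE M21 by symbol or synonym with overlapping position (23407 models). Length is merged exon bases inside the deposited model. Papd4, Papd5 and Papd7 are Tent2, Tent4b and Tent4a there. Transcript ends were those of the coding transcript nearest to the deposited end, against the longest coding transcript of other genes. Promoters came from the RefSeq table, which matched 9 of the 10 genes, all but Cpeb2. Lists held 62 partner genes, of which 60 matched. Named were the 10 genes, Khdrbs1, gene models overlapping the 10 and, per list, the called genes with the 2 largest rises and 2 largest falls, and others are marked. The genes, lists and alternatives were chosen with earlier results of these data known. One gene that this rule names is not reported here.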

Additional observations from a re-analysis of the deposited data

Results flagged for a closer look

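Of 44 groups of 4 libraries checked, the levels of the 10 genes and their 12 ratios in both cell types, 1 had a library far from the others. The log2 ratio of Cpeb2 to Cpeb3 was 3.03 in spermatid library 2 and 2.59 to 2.65 in the other spermatid libraries. Its gap to the nearest library was 0.865 of the group's range, above Dixon's critical value at the level of 95% for 4 values. Chance alone flags about 1 in 20 such groups.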

How the results depend on the processing

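The directions of the 10 genes held in 23 alternatives except that of Papd4. Removal of the GC trend with every library set to the same mean, chosen after seeing the data, left 2 genes called higher (Cpeb2 and Cpeb3) of 7 and 27.6% of all models. Under it Papola was at 0.49, Papolb at 0.36, Papd4 at -0.32, Papd5 at 0.61, Cpeb1 at 0.38 and Cpeb4 at 0.62. It moved the median of all models from 0.250 to -0.440, and these changes are to be read against that shift. With each library's own mean kept the median was 0.263 and 8 genes were called higher, against 35.8% of all models. Whether the shift in mean is technical was not tested.

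Equal total reads gave a median of -0.475, quantile normalization -0.364 and TMM scaling 0.134, against -0.011. The calls over all models were 7896 higher and 11051 lower with equal total reads, against 9333 and 8563. Papd5 was then at 0.99 and Cpeb1 at 0.69, and with quantile normalization at 0.87 and 0.79. Papd4 passed the fold threshold with TMM scaling (1.07) and without spermatocyte libraries 3 and 4 (1.01), while Papolb missed it without them (0.99). Papd7 was at 1.12 with TMM, 1.03 with median of ratios, 1.01 with edgeR, 1.07 without spermatocyte libraries 3 and 4 and 1.31 with the GC trend removed. Leaving out 1 library at a time gave 0.74 to 1.18 for Papd4, 0.94 to 1.03 for Papd7 and 0.76 to 1.33 for Cpeb1. Then 6 to 9 genes were called higher, against 30.4% to 33.4% of all models.

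No ratio passed adjustment in the 11 alternatives run for ratios, which changed the pseudocount or the libraries. The GC settings were not run for them. Leaving out 1 library allows no p below 0.0571. The difference in ratio ranged from -0.22 to 0.39 for Papola to Papolb and from -0.28 to 0.17 for Papd4 to Papd7. No paired analysis was possible because the labels share no replicate numbers between groups.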
